A study of Mus musculus with 6 samples.

Results

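Described here are 46 genes of MYC, polyamine synthesis and nucleolar ribosome assembly in mouse haematopoietic stem cells (HSCs). They were chosen by name for their function, with earlier results of these data known, so their counts above or below 0 are no test. All 46 stood among the 17068 genes that each of the authors' 11 deposited gene tables lists. The cells came from the bone marrow of mice with a Gfp-Lc3 transgene, a green fluorescent marker of autophagosomes, and were sorted as HSCs before single-cell RNA sequencing in droplets. The libraries, 6 in number and of 1 mouse each, were old fasted, old fasted and refed, old fed freely, young fasted, young fasted and refed, and young fed freely. Fasting lasted 24 hours and refeeding 24 hours, and all 6 mice had the same genotype. The tables pool the 6 libraries and compare each of 11 clusters of cells, numbered 0 to 10, with all other cells. No value can therefore be given by age or feeding, and no value below has an error between animals. Clusters had been drawn on the expression of these same cells, so a cluster against the rest is a description and not a test.

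Inverting the p-values that the authors deposited gave cluster sizes of 4904, 3955, 3910, 3802, 3747 and 1188 cells in clusters 0 to 5. Clusters 6 to 10 held 310, 267, 173, 112 and 10 cells. Counts per cell, estimated from the number of genes left undetected in a cluster, ran from 10538 in cluster 1 to 15555 in cluster 4 among clusters 0 to 5. All 10 markers of long-term HSCs were detected in every cluster, with a summed level between 11.5 and 19.3 counts per 10000. Their sum was 12 in cluster 0 and 18 in cluster 2. Of the 10, 1 had a log2 fold change above 0 in cluster 0 and 9 did in cluster 2. Their median log2 fold changes there were -0.44 and 0.38, and between -0.12 and 0.13 in clusters 1, 3, 4 and 5, by the authors' deposited tables. The 4 B cell markers summed to at most 0.026 and the 2 measured T cell markers to at most 0.103 counts per 10000 in any cluster. The 12 cycling cell markers summed to between 2.14 and 2.55 counts per 10000 in clusters 0 to 5, highest in cluster 0. The 7 granulocyte and monocyte markers summed to 9.13 to 13.6 counts per 10000 in clusters 0 to 5, mostly from Prtn3 and Lyz2, which averaged 8.42 and 2.66 over all cells. The 5 megakaryocyte markers summed to 1.62 counts per 10000 in cluster 0, against 0.631 to 0.905 in clusters 1 to 5.

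Ribosomes are assembled in the nucleolus. RNA polymerase I transcribes a long ribosomal RNA precursor, small nucleolar ribonucleoproteins (snoRNPs) guide its chemical modification, and successive protein complexes cut and fold it into the small and large subunits. The transcription factor MYC, bound to DNA with its partner MAX at the E-box CACGTG, activates many of these genes. Stem cells that rest make little new protein, and ribosome production increases when they are called into division.

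The E-box was searched in promoter sequences from RefSeq (build GRCm38.p6, 250 bases before to 50 bases after each annotated start), which matched 39 of the 46 genes. Myc, Srm, Npm1, Tcof1, Fbl, Rrp12 and Bop1 had no entry. CACGTG, which reads the same on both strands, was present in 8 of these 39 genes (20.5%), against 12.7% of genes at or above the median level in these cells and 8.09% of all genes with a promoter in the table. The 8 sites are printed as 30-base stretches, 5′ to 3′ on the strand of the gene and with the E-box in capitals, because the E-box is the sequence that MYC and MAX bind. A match is a description of the letters and not a measured binding site. In 6 of the 8 the E-box began after the annotated start, and in Nop2 and Rbm19 it began 60 and 6 bases before it.
Ltv1, chr10:13193092-13193121, minus strand: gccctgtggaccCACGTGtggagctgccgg
Mybbp1a, chr11:72441347-72441376, plus strand: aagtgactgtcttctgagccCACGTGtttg
Nop2, chr6:125131811-125131840, plus strand: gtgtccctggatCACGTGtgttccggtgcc
Pes1, chr11:3963965-3963994, plus strand: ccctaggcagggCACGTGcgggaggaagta
Rbm19, chr5:120116495-120116524, plus strand: cgcggcgggggcCACGTGactcgctaaaaa
Tsr1, chr11:74898092-74898121, plus strand: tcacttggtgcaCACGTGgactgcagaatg
Utp20, chr10:88826765-88826794, minus strand: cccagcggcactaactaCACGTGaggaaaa
Wdr43, chr17:71616220-71616249, plus strand: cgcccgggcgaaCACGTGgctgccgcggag

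Of the 8 genes with an E-box 5 act in small subunit processing. The share was 5 of 12 in that group and 2 of 12 in large subunit assembly, while the E-box was in 0 of 4 RNA polymerase I genes, 0 of 2 box C/D and 0 of 3 box H/ACA snoRNP genes. A gene without the 6 letters in this window may hold them elsewhere. The 120 bases upstream of Nop2, which hold the E-box in capitals, and the 120 bases upstream of Nop56, which hold none, are set side by side, as Nop56 had the fold pattern closest to the shared one described below.
Nop2 upstream, chr6:125131763-125131882, plus strand: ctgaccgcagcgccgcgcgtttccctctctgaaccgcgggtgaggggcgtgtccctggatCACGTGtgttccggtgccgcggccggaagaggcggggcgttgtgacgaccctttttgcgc
Nop56 upstream, chr2:130274292-130274411, plus strand: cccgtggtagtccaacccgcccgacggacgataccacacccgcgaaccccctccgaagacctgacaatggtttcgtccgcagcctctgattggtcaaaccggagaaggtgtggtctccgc

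Most of the 46 genes lay on the same side of 0 in each of the 5 largest clusters, by small amounts. In cluster 3, 43 of the 46 lay above 0 with a median log2 fold change of 0.17 by the authors' deposited table, and in cluster 0, 39 lay above 0 with a median of 0.12. In cluster 1, 43 of the 46 lay below 0 with a median of -0.17, 38 lay below 0 in cluster 2 with a median of -0.09, and 36 in cluster 4 with a median of -0.09 by the authors' deposited tables. Cluster 5 stood between, with 32 above 0 and a median of 0.06 by the authors' deposited table. Of all genes at or above the median level, 53.1% lay above 0 in cluster 3 and 57.4% in cluster 0. The shares were 31.1%, 55.4%, 51.4% and 45.9% in clusters 1, 2, 4 and 5. Their medians lay between -0.05, in cluster 1, and 0.02. The megakaryocyte and cycling cell markers were also highest in cluster 0 among clusters 0 to 5, and the long-term HSC markers lowest. The part of these markers in the result of cluster 0 was not tested.

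**Figure D1:**
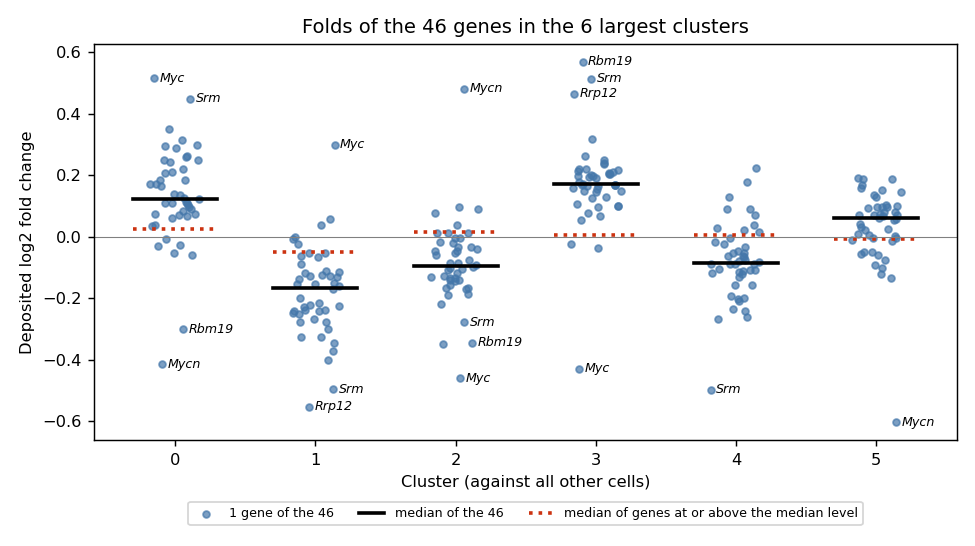
Deposited log2 fold change (vertical axis) of each of the 46 genes in clusters 0 to 5 against all other cells, with 1 point per gene. Black bars are the medians of the 46 genes, 0.12, -0.17, -0.09, 0.17, -0.09 and 0.06, and dotted red bars are the medians of all genes at or above the median level, which lie between -0.05 and 0.02.

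Calls of higher or lower required a deposited log2 fold change of 0.5 or more in size together with the authors' adjusted p under 0.05. That p is over cells and served only to filter noise. Shares of all genes are of the 17055 genes with a count in any cluster. Genes without a count in the cluster itself could be called lower and enter these shares. All 46 genes had counts in every cluster, while 16047 of the 17055 did in cluster 5. By this size rule Srm and Rbm19 were higher in cluster 3, 2 of 46 genes where 0.704% of all genes were called higher and 1.91% lower. Myc alone was higher in cluster 0, where 2.4% of all genes were higher and 6.63% lower. Rrp12 alone was lower in cluster 1, where 2.4% of all genes were lower and 0.123% higher. With folds centred on the median of all detected genes (-0.06 in cluster 1), 0 of the 46 were called lower there. Mycn alone was lower in cluster 5, where 4.88% of all genes were lower and 0.135% higher. None of the 46 was called in cluster 2 (3.02% of all genes higher and 3.49% lower) or in cluster 4 (0.387% higher and 1.35% lower), though centring gave 1 lower gene in cluster 4. The values next to the limit were Srm in clusters 1 and 4, both at -0.50 after rounding and not called, then Mycn in cluster 2 at 0.48, Rrp12 in cluster 3 at 0.46 and Myc in cluster 2 at -0.46, by the authors' deposited tables.

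With a limit of 0.25 in place of 0.5, 12 of the 46 genes were lower in cluster 1 and 1 higher, where 5.52% and 0.598% of all genes were. In cluster 0, 10 were higher and 2 lower (6.56% and 11% of all genes), and in cluster 3, 5 were higher and 1 lower (2.18% and 3.39%). Cluster 2 had 1 higher and 4 lower (6.87% and 6.37%), cluster 4 had 0 higher and 3 lower (3.39% and 2.06%), and cluster 5 had 0 higher and 1 lower (0.539% and 5.34%). The folds are small for single genes, and the number of genes on 1 side of 0 describes the pattern but is no test of it. The authors order their genes by a statistic over cells, from highest to lowest. In that order 28 of the 46 stood among the first 500 of the 17068 genes in cluster 3, against 8 in each of clusters 0 and 5 and 1 in each of clusters 1, 2 and 4. Srm was at place 12, Rbm19 at 24, Nop56 at 25, Ncl at 35 and Gnl3 at 40 of cluster 3. At the other end, Ncl was at place 17066, Nop56 at 17056 and Srm at 17053 in cluster 1, and Srm at 17067 in cluster 4. A place near either end did not need a large fold, as Ncl was at 0.16 in cluster 3 by the authors' deposited table. Of the 46 genes 45 were at or above the median level. The share of all such genes among the first 500 was not computed.

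Each cluster's level was reconstructed from the mean level over all cells, the deposited fold change and the cluster's share of cells, which lets 2 clusters be compared without their shared remainder. For cluster 3 over cluster 1 the median difference of the 46 genes was 0.30 on the log2 scale, with 43 above 0, against a median of 0.05 for genes at or above the median level. A difference of at least 0.25 was reached by 28 of the 46, against 19.3% of all genes with a value in both clusters and 7.07% of those at or above the median level. Rrp12 (0.84), Srm (0.83) and Nop56 (0.60) had the widest positive differences, and Myc (-0.61) the widest negative one. In cluster 3 over cluster 4 the median was 0.22 with 44 of 46 above 0, and 16 reached 0.25, against 13.7% of all genes with a value in both and 3.17% of those at or above the median level. In cluster 0 over cluster 1 the median was 0.27 with 44 above 0, and 26 reached 0.25, against 19.7% of all genes and 10.3% of those at or above the median level. In cluster 0 over cluster 2 the median was 0.16 with 39 above 0, and 15 reached 0.25, against 19.7% of all genes and 12.2% of those at or above the median level. Clusters 3 and 0 lay closer to each other, with a median of 0.04 for cluster 3 over cluster 0 and 32 of 46 above 0. There 3 of the 46 reached 0.25, a share near the 6.09% of genes at or above the median level (19.7% of all genes), with Rbm19 highest at 0.70 and Myc lowest at -0.75.

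**Figure D2:**
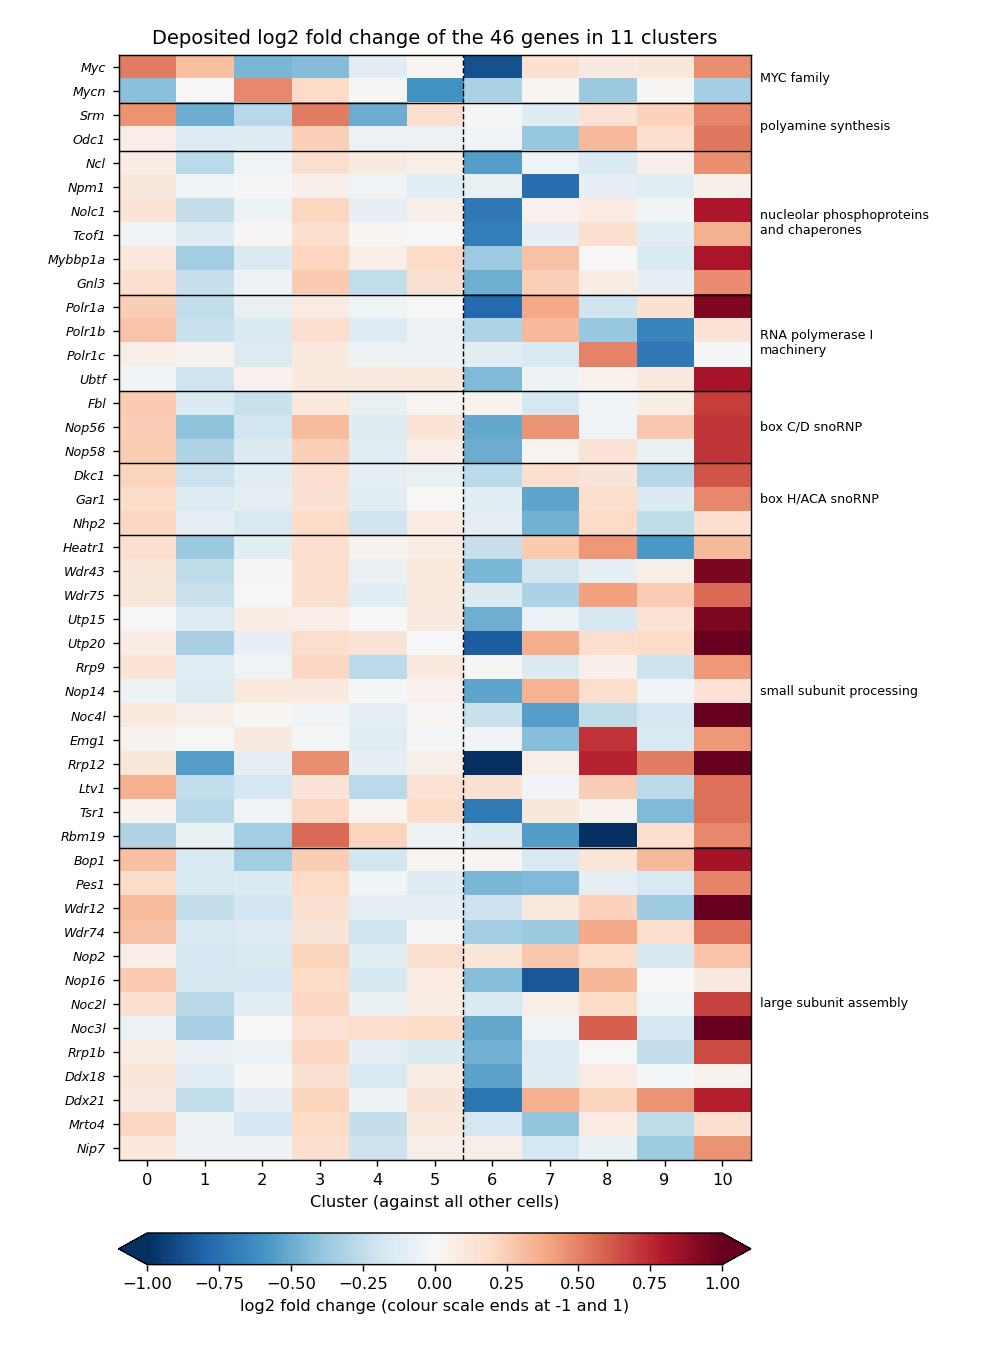
Deposited log2 fold change of the 46 genes (rows, grouped by role) in each of 11 clusters against all other cells (columns), red above 0 and blue below. The columns of clusters 0 and 3 are mostly red and those of clusters 1, 2 and 4 mostly blue, while the Myc and Mycn rows depart from their columns, and the columns right of the dashed line rest on at most 310 cells each.

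The transcripts of Myc did not follow this pattern, and MYC protein was not measured. Myc (chromosome 15, 61985391 to 61990374, mm10) had reconstructed levels of 0.968, 0.876, 0.565, 0.575, 0.693 and 0.752 counts per 10000 in clusters 0 to 5. It was high in clusters 0 and 1 and low in clusters 2 and 3, so that cluster 3, highest for the assembly genes, and cluster 1, lowest for them, were reversed for Myc. Its log2 fold changes in clusters 0 to 5 were 0.52, 0.30, -0.46, -0.43, -0.12 and 0.02 by the authors' deposited tables. Over clusters 0 to 5 the Pearson r between Myc and the median profile of the 46 genes was -0.05, a description over 6 points that share all cells.

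Mycn, the family member that can stand in for Myc in HSCs, lay opposite to Myc. Mycn (chromosome 12, 12936093 to 12941914) had reconstructed levels of 1.15, 1.45, 1.89, 1.61, 1.46 and 0.97 counts per 10000 in clusters 0 to 5. It was highest in cluster 2, where Myc was lowest, and lower in clusters 0 and 5 than in the other 4. Mycn was at 0.48 in cluster 2, -0.41 in cluster 0 and -0.60 in cluster 5, the last past the size rule, by the authors' deposited tables. In cluster 0 over cluster 2 the reconstructed difference was 0.78 for Myc and -0.72 for Mycn on the log2 scale, the highest and lowest values of the 46 genes.

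In the small clusters Myc was lower in cluster 6 (-0.87, called) and lay between 0.09 and 0.15 in clusters 7 to 9 by the authors' deposited tables. Mycn was not called there, with -0.32, 0.02, -0.37 and 0.01 in clusters 6 to 9 by the authors' deposited tables. In the 10 cells of cluster 10 Myc was at 0.46 and Mycn at -0.34 by the authors' deposited table, neither called.

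**Figure D3:**
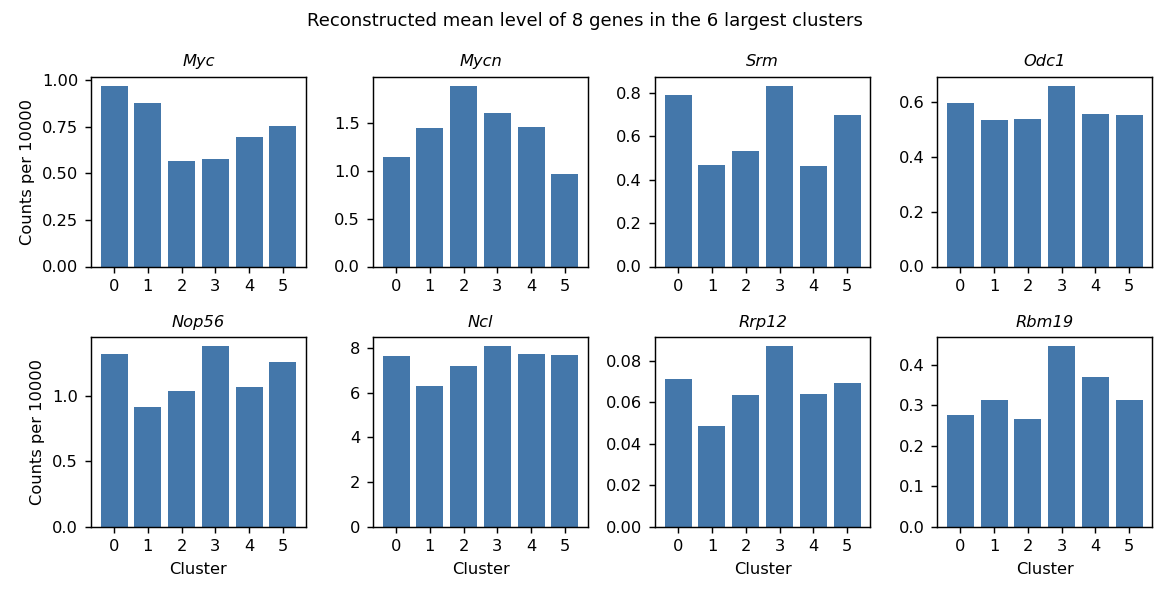
Reconstructed mean level (counts per 10000, vertical axes from 0, each gene on its own scale) of 8 genes in clusters 0 to 5, without error bars as the libraries are pooled. Srm, Nop56 and Rrp12 are highest in cluster 3 and low in cluster 1, Myc is highest in cluster 0 and lowest in cluster 2, and Mycn is highest in cluster 2 and lowest in cluster 5.

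Polyamines are needed for growth, and both genes of their synthesis studied here are textbook MYC targets. Srm, which encodes spermidine synthase (chromosome 4, 148591503 to 148594993), was among the most variable of the 46 genes. Its reconstructed levels were 0.79, 0.467, 0.532, 0.832, 0.465 and 0.697 counts per 10000 in clusters 0 to 5. Clusters 3 and 0 lay high, cluster 5 next, and clusters 1 and 4 low, with 1.79 times as much in the highest as in the lowest. Odc1, the ornithine decarboxylase that makes the first polyamine, ranged only from 0.532 counts per 10000 in cluster 1 to 0.656 in cluster 3. Of 17 other polyamine pathway genes, Arg2 was lower in clusters 0 (-2.12) and 4 (-1.80) by the authors' deposited tables, from a mean of 0.00105 counts per 10000. Arg1 had no count in cluster 5.

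The snoRNP genes lay on the same side of 0 as one another in clusters 0 to 4. Fibrillarin (Fbl), which methylates ribosomal RNA, and its scaffold proteins Nop56 and Nop58 form box C/D particles. Their folds were 0.26, 0.25 and 0.25 in cluster 0, -0.14, -0.40 and -0.30 in cluster 1, and 0.11, 0.32 and 0.24 in cluster 3 by the authors' deposited tables. Nop56 (chromosome 2, 130274430 to 130279313) reached 1.38 counts per 10000 in cluster 3, 1.32 in cluster 0 and 1.26 in cluster 5, and 1.07, 1.04 and 0.913 in clusters 4, 2 and 1. Its r with the median profile of the 46 genes over clusters 0 to 5 was 0.99, the highest of all 46. The box H/ACA genes Dkc1, Gar1 and Nhp2, whose particles convert uridine to pseudouridine, lay within a narrow band. The 3 were between 0.19 and 0.22 in cluster 0, between 0.15 and 0.20 in cluster 3, and between -0.22 and -0.09 in cluster 1 by the authors' deposited tables. No snoRNP gene passed the size rule in clusters 0 to 5.

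The RNA polymerase I group was less uniform. The subunit genes Polr1a and Polr1b were at 0.24 and 0.29 in cluster 0 and at -0.24 and -0.22 in cluster 1 by the authors' deposited tables. Polr1c, whose subunit is shared with RNA polymerase III, lay between -0.13 and 0.10 in clusters 0 to 5. Ubtf, which holds ribosomal DNA in an open state, was at -0.03 in cluster 0, -0.20 in cluster 1 and 0.10 in cluster 3 by the authors' deposited tables. None of the 4 was called in clusters 0 to 5.

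Among nucleolar phosphoproteins and chaperones all 6 lay above 0 in cluster 3 (median 0.19) and below 0 in cluster 1 (median -0.23) by the authors' deposited tables. Nucleolin (Ncl, chromosome 1, 86344719 to 86359400), which binds nascent ribosomal RNA, had 8.07 counts per 10000 in cluster 3 and 7.65 in cluster 0, and 6.3 in cluster 1. Clusters 2, 4 and 5, with 7.21, 7.74 and 7.7, stood between cluster 1 and cluster 3. Its late place in the order of cluster 1 went with a fold of only -0.27 by the authors' deposited table. Nucleophosmin (Npm1), a histone and ribosome chaperone, varied less, from 13.1 counts per 10000 in cluster 5 to 14.9 in cluster 0. Npm1 has processed copies in the mouse genome, and how reads that match several places were counted is not known here. Nolc1, which binds snoRNPs, was at 0.22 in cluster 3 and -0.24 in cluster 1, and Tcof1, a factor for ribosomal DNA transcription, at 0.17 and -0.12, by the authors' deposited tables. Gnl3, the nucleostemin gene, was at 0.26 in cluster 3 and -0.24 in cluster 4, and Mybbp1a at -0.35 in cluster 1 and 0.19 in cluster 5, by the authors' deposited tables.

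The 13 small subunit genes varied to different degrees, from a range of 1.02 between the highest and lowest fold in clusters 0 to 5 for Rrp12 to 0.19 for Noc4l. Rrp12, which takes part in export and maturation of pre-ribosomes, had 0.0711, 0.0483, 0.0633, 0.0868, 0.0638 and 0.0694 counts per 10000 in clusters 0 to 5. It was highest in cluster 3 and lowest in cluster 1, where it was called lower (-0.55 by the authors' deposited table), a call that centring ended. It was the least detected of the 46, with about 279 counts expected in cluster 1 at its mean level and estimated depth. Rbm19 (chromosome 5, 120116465 to 120198981), an RNA-binding factor of small subunit processing, had 0.275, 0.313, 0.265, 0.445, 0.369 and 0.314 counts per 10000 in the same order. Cluster 3 was high, cluster 4 next and clusters 0 and 2 low, so Rbm19 parted from the other genes in cluster 0 (-0.30) and in cluster 4 (0.22) by the authors' deposited tables. Its r with the median profile was 0.35.

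Among the other small subunit genes, Heatr1, Wdr43, Wdr75 and Utp15, which join transcription of the precursor to its first cuts, were at -0.37, -0.25, -0.23 and -0.13 in cluster 1 by the authors' deposited tables. In cluster 3 the same 4 genes were at 0.17, 0.17, 0.16 and 0.07 by the authors' deposited table. Ltv1, a late small subunit factor, was at 0.35 in cluster 0 and -0.27 in cluster 4, and Rrp9, which binds the U3 snoRNA, at -0.26 in cluster 4, by the authors' deposited tables. Nop14, whose yeast counterpart binds those of Noc4l and Emg1, was at 0.10 in cluster 3, and Utp20 and Tsr1 were at 0.18 and 0.21 there and at -0.33 and -0.28 in cluster 1, by the authors' deposited tables. Emg1, a methyltransferase, and Noc4l varied least of all 46 genes, with ranges of 0.20 and 0.19 between their highest and lowest fold in clusters 0 to 5. They did not exceed 0 in cluster 3, at -0.02 and -0.04 by the authors' deposited table, and apart from Myc they were the only ones of the 46 that did not.

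All 13 large subunit genes lay above 0 in cluster 3 (median 0.20) and below 0 in cluster 1 (median -0.15), and 12 lay above 0 in cluster 0 (median 0.16) by the authors' deposited tables. Bop1, Pes1 and Wdr12 form 1 complex that is needed for the large subunit. They were at 0.30, 0.18 and 0.31 in cluster 0, at -0.35, -0.14 and -0.19 in cluster 2, and at 0.25, 0.20 and 0.15 in cluster 3 by the authors' deposited tables. Nop16 was at 0.26 in cluster 0 and 0.19 in cluster 3, and Mrto4 and Nip7, late assembly factors, were at -0.24 and -0.21 in cluster 4, by the authors' deposited tables. Noc2l, whose yeast counterpart binds that of Noc3l, was at 0.21 in cluster 3 and -0.28 in cluster 1, and Wdr74 at 0.29 in cluster 0, by the authors' deposited tables. In cluster 3 Rrp1b was at 0.20, Nop2, an RNA methyltransferase, at 0.22, and the helicase genes Ddx18 and Ddx21 at 0.16 and 0.22, by the authors' deposited table. Noc3l parted from this group, at -0.06 in cluster 0 and 0.18 in cluster 4 by the authors' deposited tables.

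Other genes of ribosome assembly, from lists separate from the 46 but also chosen with earlier results known, lay on the same sides by smaller amounts. Of 88 other small and large subunit assembly genes 76 lay above 0 in cluster 3 (median 0.08) and 65 in cluster 0 (median 0.07), and 75 lay below 0 in cluster 1 (median -0.11) by the authors' deposited tables. None of the 88 passed the size rule in clusters 0 to 5. Of MYC targets outside the nucleolus 36 of 40 lay above 0 in cluster 0 (median 0.18) and 37 in cluster 3 (median 0.12), while 4 did in cluster 1 (median -0.15), by the authors' deposited tables. For all genes at or above the median level the shares above 0 were 57.4%, 53.1% and 31.1% in clusters 0, 3 and 1. The amino acid transporter gene Slc7a5 was higher in cluster 0 (0.53) and lower in cluster 1 (-0.70), and Rcc1 was lower in cluster 2 (-0.59), by the authors' deposited tables. Slc7a5 and Rcc1, at means of 0.0549 and 0.108 counts per 10000, were the called genes of that list in clusters 0 to 5. Of all genes 2.4% were called higher in cluster 0, 2.4% lower in cluster 1 and 3.49% lower in cluster 2.

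The 12 measured genes of the list that pair with MYC or oppose it did not follow the pattern as a group. Above 0 lay 6 of them in cluster 0 (median 0.01), 3 in cluster 1 (-0.11) and 3 in cluster 3 (-0.05) by the authors' deposited tables. Max, the dimer partner of MYC, was at 0.10, -0.11, -0.07, 0.16, -0.07 and 0.04 in clusters 0 to 5 by the authors' deposited tables. Ranked by r with the median profile of the 46 genes over clusters 0 to 5 among 8483 other genes at or above the median level, Max was at rank 3 with 0.995. The 10 nearest genes were Trmo, Pprc1, Max, G3bp1, Colgalt1, Tmc6, Mtap, Mars, Rhbdd3 and Cnbp. An r of at least 0.8 was reached by 30 of the 46 genes (65.2%), whose own values enter the profile, and by 7.04% of the other genes. Of the MYC partner list only Mxd3 was called in clusters 0 to 5, lower in cluster 5 (-2.45 by the authors' deposited table) from a mean of 0.00258 counts per 10000.

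Genes of the finished ribosome lay on the other side of 0 from the assembly genes in cluster 1. Of 70 cytoplasmic ribosomal protein genes 65 lay above 0 in cluster 1 (median 0.06 by the authors' deposited table), where 43 of the 46 genes described here lay below 0. In cluster 3 their median was 0.01 and in cluster 0 it was 0.03 by the authors' deposited tables, and none was called in clusters 0 to 5. Their summed level was 3520 counts per 10000 in cluster 1 and 3430 in each of clusters 0 and 3. Folds in cluster 1 fell with transcript length across genes at or above the median level (Spearman's rho -0.46). The part of length in the opposite sides of the ribosomal protein and assembly genes was not tested. In the authors' deposited pathway tables the KEGG ribosome set had its highest score in cluster 1 (16.7), where the Reactome set of RNA polymerase I transcription scored -12.5 and the set of ribosomal RNA modification -11.4. The broader Reactome set of ribosomal RNA processing scored 3.43 there, and 578 of all 2922 pathways scored above 0 in cluster 1, by the authors' deposited pathway tables. The Reactome set of ribosomal RNA modification scored 13.7, 13.2 and -8.57 in clusters 3, 0 and 4 of the authors' deposited pathway tables.

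**Figure D4:**
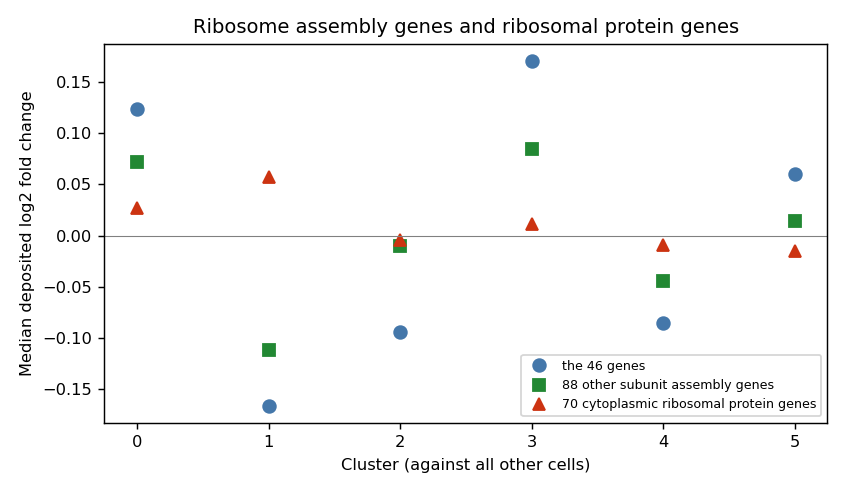
Median deposited log2 fold change (vertical axis) of the 46 genes, of 88 other subunit assembly genes and of 70 cytoplasmic ribosomal protein genes in clusters 0 to 5 against all other cells. In cluster 1 the 46 genes are at -0.17 and the ribosomal protein genes at 0.06, and in cluster 3 the 46 genes are at 0.17 and the ribosomal protein genes at 0.01.

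Transcript length moved with the folds in some clusters. Across the 46 genes Spearman's rho between the fold and the length of the longest annotated transcript was -0.46 in cluster 1 and 0.57 in cluster 4, and it was -0.46 and 0.56 across the 8469 genes at or above the median level with a length. It was -0.24 in cluster 0 and 0.11 in cluster 3 across the 46 genes. In cluster 1 the 15 shortest of the 46 had a median of -0.13 and the 15 longest -0.24, and in cluster 4 these were -0.12 and -0.00, by the authors' deposited tables. In cluster 3 the medians of the shortest and longest were 0.19 and 0.17, and in cluster 0 they were 0.19 and 0.09, by the authors' deposited tables. Cluster 1 also had the lowest and cluster 4 the highest estimated counts per cell of clusters 0 to 5, and the part of length and depth in these results was not tested.

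**Figure D5:**
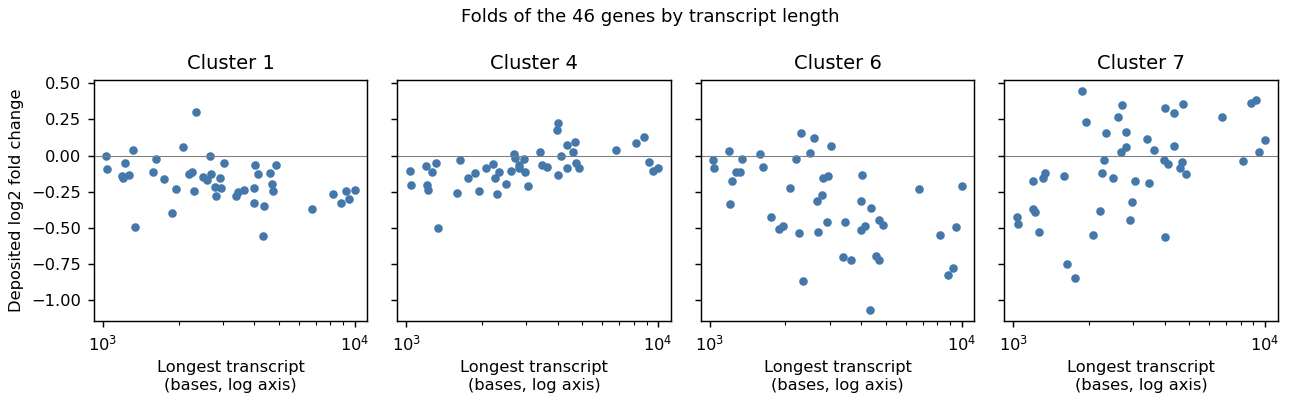
Deposited log2 fold change (vertical axis) of the 46 genes against the length of their longest annotated transcript (bases, log axis) in clusters 1, 4, 6 and 7. Folds are lower for longer transcripts in clusters 1 and 6 (rho -0.46 and -0.54) and higher for longer ones in clusters 4 and 7 (rho 0.57 and 0.52).

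In the small clusters the 46 genes split or moved with the cluster as a whole. Of the 17055 genes, 14504, 14315, 14094, 13705 and 12145 had a count in clusters 6 to 10. Genes without one could be called lower and enter the shares of all genes lower, whereas all 46 genes had counts in each. In cluster 6, 13 of the 46 were called lower, where 26.2% of all genes were lower and 0.0469% higher, and 4 were after centring. The median of -0.33 by the authors' deposited table stood beside -0.23 over all detected genes. Rrp12 (-1.06), Myc (-0.87), Utp20 (-0.83) and Polr1a (-0.78) were the lowest there by the authors' deposited table. The other 9 called were Ncl, Nolc1, Tcof1, Nop56, Nop14, Tsr1, Noc3l, Ddx18 and Ddx21, between -0.72 and -0.51 by the authors' deposited table. The 13 mitochondrially encoded genes had a median of -0.74 in this cluster by the authors' deposited table. Its 6 erythroid markers summed to 10.9 counts per 10000, against 2.02 to 3.79 in the other 10 clusters, and their part in the result was not tested.

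In cluster 7, 5 of the 46 were called lower, where 24.3% of all genes were lower and 1.84% higher. They were Nop16 (-0.85), Npm1 (-0.75), Rbm19 (-0.56), Noc4l (-0.55) and Gar1 (-0.53) by the authors' deposited table. Nop56 was at 0.45, Polr1a at 0.38 and Utp20 at 0.36 by the authors' deposited table, none of them called. Of the ribosomal protein genes 69 of 70 were called lower in cluster 7 (median -0.93) and all 13 mitochondrially encoded genes higher (median 1.17) by the authors' deposited table. The 15 shortest of the 46 had a median of -0.38 and the 15 longest 0.07 by the authors' deposited table.

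In cluster 8 Emg1 (0.72) and Noc3l (0.60) were called higher, where 2.37% of all genes were, and Rbm19 (-1.35) lower, where 19.5% of all genes were, by the authors' deposited table. After centring 1 was higher and 2 were lower. Rbm19, higher in cluster 3 and lower in clusters 7 and 8, was called in 3 clusters, and Myc, Rrp12, Ddx21 and Noc3l in 2 each. In cluster 9 Polr1c (-0.72) was called lower, where 19.9% of all genes were lower and 1.2% higher, by the authors' deposited table. In the 10 cells of cluster 10, 44 of the 46 lay above 0 with a median of 0.53, against 0.37 over all detected genes, by the authors' deposited table. Of genes at or above the median level 78.3% lay above 0 in this cluster. Wdr12 (1.02), Wdr43 (0.94), Ubtf (0.83), Ddx21 (0.78) and Fbl (0.69) were called higher there, where 1.79% of all genes were higher and 27.6% lower, and Wdr43 stood first by the authors' deposited table. After centring 2 were called higher. Counts per cell were estimated at 49249 in cluster 10, and 44 of the 46 genes had under 100 expected counts in it. Utp20 had the highest fold there (1.61 by the authors' deposited table) and was not called.

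At the limit of 0.25, 24 of the 46 were lower in cluster 6 and 0 higher (33.2% and 0.106% of all genes), and 10 were lower and 2 higher in cluster 7 (28.1% and 2.73%). In cluster 8, 3 were higher and 2 lower (6.04% and 20.1%), in cluster 9 1 was higher and 1 lower (1.66% and 20.3%), and in cluster 10 7 were higher and 0 lower (2.13% and 27.6%). Under 100 counts were expected for 15, 18, 19 and 25 of the 46 genes in clusters 6 to 9.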

How the data were processed

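Every cluster had 2 deposited tables, for genes and for pathways, made with Scanpy on mm10, per the submitters' processing notes. Aligner, cell filters, doublet handling, cluster settings and test were not given in the sources used here. Per gene, the deposited mean level is on a log2 scale of counts that the authors scaled to a total of 10000 a cell, and the deposited fold change is log2 against all other cells. The deposited p-value and adjusted p-value are over cells. The deposited pathway score is a signed statistic over cells. Fold changes under -10 mark genes without a count in the cluster, and 17055 genes had a count.

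Cluster sizes came from genes detected in 1 cell, whose Welch statistic is 1 and whose p-value depends only on the number of cells. The 11 sizes added up to 22378. The level of a cluster was reconstructed from the mean level, the fold and the share of cells. Weighted over clusters, the levels returned the mean of the 46 genes within 0.0105 on the log2 scale. Summed over genes they came to 10022 to 10074 in clusters 0 to 5, but 8197 in cluster 7, so levels of single genes are given for clusters 0 to 5. Both steps were tested on simulated cells in fewer clusters than here, and the estimate of counts per cell was not tested. Expected counts are the mean level times cells times estimated counts per cell.

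Lengths and positions are from GENCODE M21 (mm10). The 46 genes and all lists were chosen with earlier results of these data known. The genes named are all 46 by role, the called ones, the 4 highest and 4 lowest in clusters 0, 1, 3 and 4, called list members and the 10 most alike in profile. The 11 further list names that the tables do not hold were not analysed here. The p53 and nucleolar stress, MYC turnover, mTORC1, snoRNA host and RNA polymerase lists are in the closing observations. Alternatives were the mean, another fold limit, centring, a level filter, leaving out MYC and polyamine genes, and transcript length. Computations used Python 3.11.15 with pandas 2.3.3 and SciPy 1.17.1. Values by library, barcodes shared between libraries and depth per library were not analysed here.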

Additional observations from a re-analysis of the deposited data

How the results depend on the processing

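The medians of clusters 0 to 5 kept their sign and moved by at most 0.1 on the log2 scale under each alternative: the mean over genes, genes at or above the median level only, centring on the median of all detected genes, without Myc, Mycn, Srm and Odc1, and the shortest or longest 15 genes, the last pair chosen after seeing the data. Centring gave -0.094 for cluster 6, 0.16 for cluster 10 and -0.022 for cluster 8, which turned from 0.11. The shortest 15 genes gave -0.11 in cluster 6 and -0.38 in cluster 7. The longest 15 gave -0.49 in cluster 6, 0.78 in cluster 10, 0.068 in cluster 7, which turned from -0.05, and 0.048 in cluster 9, which turned from -0.06. At a limit of 0.25 the genes called higher numbered 10, 1, 1 and 5 in clusters 0 to 3, 2 in cluster 7 and 1 in cluster 9, and those called lower 2, 12, 4, 1 and 3 in clusters 0 to 4, 24 in cluster 6, 10 in cluster 7 and 2 in cluster 8. With centring the genes called lower numbered 0, 1, 4 and 2 for clusters 1, 4, 6 and 8, and those called higher 1 in cluster 8 and 2 in cluster 10. With genes at or above the median level only, 0 were called lower in cluster 1, as Rrp12 is below that level. The cause of the other changes was not tested. No paired analysis was possible because each group is 1 library and the tables pool all libraries. Leaving out a library was not possible for the same reason.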

Other observations

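Of 20 snoRNA host genes 1 was called higher and 2 lower in cluster 0, where 2.4% and 6.63% of all genes were. In cluster 2, 1 was higher and 1 lower, where 3.02% and 3.49% of all genes were. Snhg4 was higher in cluster 0 (0.95) and lower in cluster 2 (-0.67) by the authors' deposited tables, while Gas5 was at 0.15 and -0.08 there. Snhg11 was lower in cluster 0 (-1.84) and higher in cluster 2 (0.98), and Snhg18 was lower in cluster 0 (-0.50), by the authors' deposited tables. Snhg11 and Snhg18 had means of only 0.013 and 0.0779 counts per 10000. Of the other RNA polymerase I and III genes 0 were called in clusters 0 to 5, and their medians were 0.10 in cluster 0, -0.06 in cluster 1 and 0.07 in cluster 3 by the authors' deposited tables. Of the genes that degrade or stabilise MYC 0 were called in clusters 0 to 5, with medians between -0.05 and 0.03 by the authors' deposited tables.

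Of the p53 and nucleolar stress list Phlda3 was higher in cluster 2 (0.61) and Eda2r lower in cluster 0 (-0.83) by the authors' deposited tables. Phlda3 and Eda2r had means of 0.046 and 0.00796 counts per 10000. Cdkn2a, at a mean of 0.00021 counts per 10000, had no count in clusters 2 and 4 to 10. Of the mTORC1 and nutrient list Ddit4l, an inhibitor of mTORC1, was lower in cluster 0 (-1.33) and higher in cluster 1 (0.72) by the authors' deposited tables, from a mean of 0.00935 counts per 10000.

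The folds of genes with and without an E-box near the start are given without a test. Over the 8 genes with one the medians for clusters 3, 1 and 0 were 0.20, -0.25 and 0.09, against 0.17, -0.16 and 0.13 over the 31 genes without one, by the authors' deposited tables. Of the genes of the other subunit assembly lists with a promoter entry 22.5% held the E-box.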
